A study of Mus musculus with 12 samples.

Results

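The response of macrophages without CD36 to oxidized low-density lipoprotein (oxLDL) was measured in 6 of the 12 RNA-seq libraries of the series: 3 of CD36-deficient (CD36 KO) peritoneal macrophages given oxLDL at 20 µg/ml for 8 h and 3 of the same cells in control medium. The libraries were chosen by their titles, and every gene of the count table with enough reads was tested, which was 15781 of 43346. The other 6 libraries hold wild-type (WT) macrophages under the same treatments and serve here only to show where the response differed without CD36. All mice were C57BL/6, and the cells were cultured in RPMI1640 with fetal bovine serum. All CD36 KO libraries, controls included, carry the Cd36 deletion, and the labels give neither the part of the gene that was removed nor how the peritoneal cells were purified. The labels also do not say whether replicates were separate animals or cultures, so the p-values reflect variation among these libraries only, which may be technical in origin.

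Peritoneal macrophages are phagocytes of the abdominal cavity. CD36 is a scavenger receptor of their surface that binds oxidized phospholipids of oxLDL and helps to bring the particle and its cholesterol into the cell. Other receptors bind modified lipoproteins too, among them the scavenger receptors encoded by Msr1, Marco and Olr1, and Toll-like receptors that signal through NF-kB have been linked to oxLDL. Oxidized lipids are also known to activate NRF2, a transcription factor of antioxidant genes, and PPAR and LXR nuclear receptors, which control lipid storage and cholesterol efflux. A CD36 KO macrophage therefore shows which changes under oxLDL occur without this receptor.

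The 6 libraries held 35257762 to 46714685 counts each, and those of the same group correlated at r = 0.988 or more across genes. Levels are given as CPM, counts scaled to a common library total with TMM factors, and they follow read numbers, not numbers of molecules, so levels are compared between libraries and not between genes. Macrophage markers were present: Lyz2, the lysozyme of myeloid cells, stood at 13190.0 CPM in the controls and 14503 CPM under oxLDL. The F4/80 gene Adgre1 went from 285 to 993 CPM. Timd4 and Gata6, markers of resident large peritoneal macrophages, measured 1.42 and 27.4 CPM in the controls. Of the markers of other cells, 11 of 11 mesothelial and fibroblast genes were measured, at a sum of 2112 to 3524 CPM in the controls and 2071 to 2554 CPM under oxLDL, with the highest sum in control replicate 2, and 1 rose and 5 fell, or 2 rose and 3 fell without that library. The 10 B cell markers summed to 127 to 303 CPM in the controls and 147 to 193 CPM under oxLDL, and 0 changed. T and NK cell, neutrophil, mast cell, eosinophil and dendritic cell markers summed to at most 184 CPM in any library, the highest value being that of neutrophil markers, which went from 64.6 to 84.7 CPM in the controls to 174 to 184 CPM under oxLDL. T and NK cell markers went from 21.3 to 26.3 CPM in the controls to 5.57 to 6.73 CPM under oxLDL, most of it Cd28, and 2 of 6 rose and 2 fell. Eosinophil markers went from 15.4 to 16.9 CPM to 4.27 to 4.96 CPM, most of it Siglecf, and 1 of 3 fell. Of 6 erythroid markers 0 passed the filter. In bulk RNA, fewer cells of a type and less RNA per cell cannot be told apart, and the part of other cells in the results below was not tested.

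Cd36 itself (ENSMUSG00000002944, chromosome 5, 17781690 to 17888801, mm10; gene spans are those of GENCODE M21) was measured at 519, 475 and 548 CPM in the controls and 225, 224 and 214 CPM under oxLDL. The 3 treated libraries lay below the 3 controls, and the log2 fold change was -1.22 ± 0.10 (SE, adjusted p = 7.94e-06). With all 12 libraries on 1 scale, the 6 CD36 KO libraries held 190.3 to 511 CPM and the 6 WT libraries 1899 to 5475 CPM, so every CD36 KO library was below every WT library. The gene totals cannot place the remaining reads on exons.

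CD36 KO macrophages changed broadly under oxLDL. Of 15781 genes, 6624 (42%) passed an adjusted p under 0.05, 3186 higher (20.2%) and 3438 lower (21.8%). Rises reached further than falls: 1195 genes (7.57%) rose and 1283 (8.13%) fell at least 2-fold, 492 rose and 296 fell at least 4-fold, 248 rose and 75 fell at least 8-fold, and 135 rose and 19 fell at least 16-fold. The share of all reads in the genes that rose at least 8-fold went from 0.264% to 0.313% in the controls to 4.93% to 5.86% under oxLDL. In 4231 genes (26.8%) the 3 treated libraries all lay above the 3 controls, and in 4602 (29.2%) all lay below. The median log2 fold change over all tested genes was -0.018. Upper-quartile scaling moved that median to -0.128 and the share of calls that were higher from 48.1% to 35.7%, so small changes depend on the scaling. In the authors' deposited table of this comparison, which holds 13396 genes, 6196 passed the same threshold on the false discovery rate, and the present fit called 5860 of them with the same sign.

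**Figure D1:**
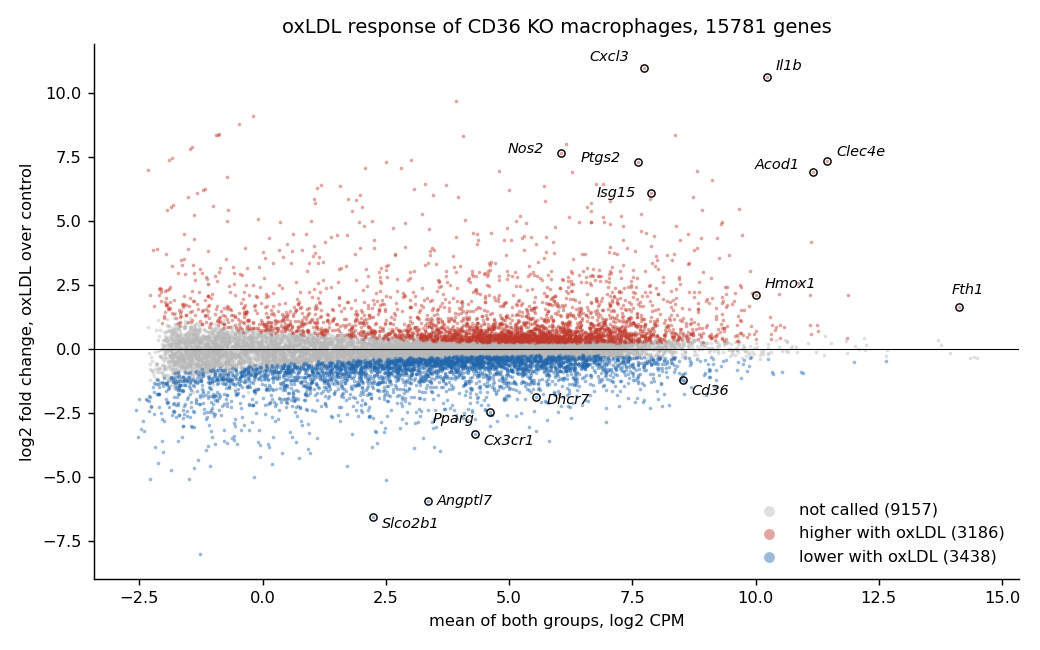
Log2 fold change with oxLDL in CD36 KO macrophages (vertical) against the mean level of both groups in log2 CPM (horizontal), 1 point per gene for 15781 genes; red genes rose (3186), blue genes fell (3438) and grey genes were not called. Circles name 15 genes described in the text, from Cxcl3 at 10.96 to Slco2b1 at -6.56.

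Some genes were nearly silent in one medium. In 16 genes every control library was under 1 CPM and every treated library was at 10 CPM or more. They include Cxcl3, Il6, Il12a, Il12b, Csf3 and Tnfsf15, which encode secreted or membrane cytokines, Ptx3, a soluble pattern recognition protein, Mir155hg, the precursor transcript of the microRNA miR-155, and Tarm1, an activating receptor of myeloid cells. Tarm1 measured 0.306, 0.550 and 0.798 CPM in the controls and 119.5, 139 and 169 CPM under oxLDL, and its groups were far apart. The reverse pattern was found in 1 gene, Angptl7, which encodes an angiopoietin-like secreted protein. It measured 15.4, 26.5 and 18.3 CPM in the controls and 0.371, 0.445 and 0.140 CPM under oxLDL. Slco2b1, an organic anion transporter gene, had the steepest fall among genes with at least 5 CPM in the higher group. It went from 9.35 ± 1.08 to 0.0983 ± 0.0383 CPM (mean ± SD, n = 3, as for all levels given this way), a log2 change of -6.56 ± 0.26 (SE, adjusted p = 7.27e-08). Angptl7, Lrrc14b, Npas4, Slc46a3 and Abcg3 followed with log2 fold changes of -5.95, -5.12, -4.58, -3.97 and -3.89. The genes that gained most reads were Fth1, Clec4e, Prdx1 and Acod1. Clec4e encodes Mincle, a C-type lectin that senses microbial glycolipids and damaged cells, and measured 34.2, 30.0 and 39.7 CPM in the controls and 5428, 5392 and 5871 CPM under oxLDL, a 161-fold difference.

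**Figure D2:**
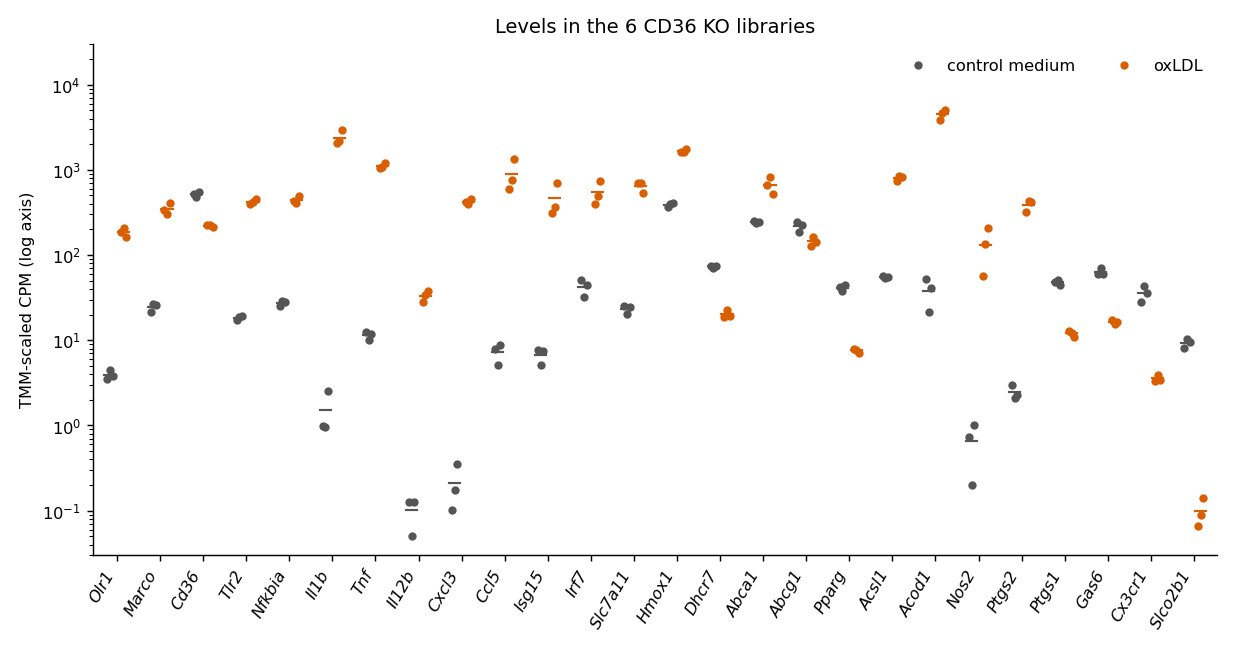
Level of 26 genes in each of the 6 CD36 KO libraries, in TMM-scaled CPM on a log axis; grey points are the 3 control libraries, orange points the 3 oxLDL libraries, and short lines the group means. For each of these genes the groups did not overlap, and Cd36, Dhcr7, Abcg1, Pparg, Ptgs1, Gas6, Cx3cr1 and Slco2b1 were lower with oxLDL while the others were higher.

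Receptors that bind or take up lipoproteins moved in both directions without CD36. Of 18 tested, 7 rose and 5 fell, with a median log2 fold change of 0.06. Over all tested genes 20.2% rose and 21.8% fell, and the counts of each list below are to be read against these shares. Olr1 encodes LOX-1, an oxLDL receptor best known from endothelium, and measured 3.55, 4.50 and 3.82 CPM in the controls and 185, 209.8 and 164 CPM under oxLDL. It was 47.1-fold higher, a log2 change of 5.56 ± 0.15 (SE, adjusted p = 1.05e-08). Marco, a class A scavenger receptor, went from 24.7 ± 2.90 to 349.6 ± 52.4 CPM and Msr1, the class A receptor SR-A, from 539 ± 29.4 to 1035 ± 40.7 CPM. Cxcl16, whose membrane form binds oxidized lipoproteins, rose by 2.48 and Scarf1 by 2.21 on the log2 scale. Lrp1, a large receptor for apolipoprotein E remnants, measured 1834, 1619 and 1627 CPM in the controls and 859, 1090.0 and 761 CPM under oxLDL, and all treated libraries were lower. Scarb1 (SR-B1, the HDL receptor), Stab1 and Cd163 (receptors for modified proteins and for hemoglobin with haptoglobin) also fell, by 0.60, 1.12 and 1.66 on the log2 scale. Colec12, a class A scavenger receptor like Msr1 and Marco, fell by 0.75, so members of that class moved in both directions.

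Toll-like receptors and their adaptors also moved both ways: 11 of 24 rose and 7 fell, with a median of 0.26. Tlr2, the receptor of bacterial lipopeptides, measured 17.1, 18.5 and 19.1 CPM in the controls and 396, 416 and 451 CPM under oxLDL, and rose by 4.53 ± 0.11 (SE, adjusted p = 7.47e-09) on the log2 scale. Its partner Tlr1 rose by 1.28, and the co-receptor gene Cd14 by 3.34. Tlr4, the endotoxin receptor, measured 92.3, 83.8 and 101 CPM in the controls and 53.4, 60.2 and 40.5 CPM under oxLDL and lay lower in all treated libraries, with a log2 change of -0.85 ± 0.14 (SE, adjusted p = 0.00117). Tlr13 and Tlr5 fell as well, by 0.91 and 1.32. The adaptor Myd88 rose by 1.49, and Irak3, which restrains signalling, by 2.87.

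Genes of the NF-kB system rose nearly throughout. NF-kB dimers are held in the cytoplasm by inhibitors that NF-kB itself induces, which closes a feedback loop. Of 16 tested subunits, inhibitors and kinases, 14 rose and 0 fell, with a median of 1.44. Nfkbia, which encodes the inhibitor IkB-alpha, measured 25, 28.7 and 28 CPM in the controls and 431, 409.6 and 493 CPM under oxLDL. The inhibitor genes Nfkbie and Nfkbiz rose by 3.71 and 3.04, and the subunit genes Nfkb2, Relb, Nfkb1, Rela and Rel by 3.23, 2.69, 2.07, 1.23 and 1.16. Of 28 brakes on inflammatory signalling, 18 rose and 2 fell, with a median of 1.0. Tnfaip3, the ubiquitin-editing enzyme A20, went from 69 ± 3.19 to 485 ± 21.1 CPM, and Socs3, which blocks cytokine receptor signalling, rose by 4.60 on the log2 scale. Zc3h12a, an RNase that degrades inflammatory mRNAs, rose by 2.55, and Otud1, a deubiquitinase gene, fell by 0.85.

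Most cytokine and chemokine genes rose steeply. Of 35 cytokines and growth factors, 29 rose and 3 fell (median 2.49), and of 23 chemokines 18 rose and 2 fell (median 3.04). The treated library oxLDL replicate 3 was the highest in 26 of the 35 and in 20 of the 23, and the chemokine sums under oxLDL were 5670.0, 6026 and 7838 CPM. That library was also the highest in 25 of 31 lysosome and autophagy genes, and in 7 of 16 genes of the NF-kB system. Il1b (ENSMUSG00000027398, chromosome 2, 129364570 to 129371139), which encodes interleukin-1 beta, measured 0.996, 0.951 and 2.57 CPM in the controls and 2042, 2194 and 2952 CPM under oxLDL, with a log2 change of 10.63 ± 0.40 (SE, adjusted p = 6.59e-08). The treated libraries lay far above the controls, and oxLDL replicate 3 was the highest. Tnf, the tumor necrosis factor gene, measured 12.4, 10.1 and 11.8 CPM in the controls and 1046, 1072 and 1193 CPM under oxLDL. The subunits of interleukin-12, Il12a and Il12b, went from 0.0336 to 30.4 CPM and from 0.101 to 33.2 CPM, the former from 4 reads in all 3 controls together. Il6 rose by 6.94, Csf3 by 7.38, Csf2 by 6.08 and the anti-inflammatory Il10 by 2.49, the last to a mean of only 1.34 CPM. Csf2 reached a mean of only 0.784 CPM, from 1 read in all 3 controls together. Il16 fell by 1.42, Igf1 by 0.40 and the angiogenic factor Vegfa by 0.71 on the log2 scale. Csf1, the macrophage growth factor, did not pass the test (log2 fold change 0.15, adjusted p = 0.400).

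Among chemokines, the largest rises were in Cxcl3 and Cxcl2, which attract neutrophils. Cxcl3 (ENSMUSG00000029379, chromosome 5, 90786103 to 90789600) measured 0.102, 0.175 and 0.349 CPM in the controls and 423, 402 and 449 CPM under oxLDL, a log2 change of 10.96 ± 0.24 (SE, adjusted p = 4.99e-09), and Cxcl2 (ENSMUSG00000058427, chromosome 5, 90903871 to 90905938) measured 1.89, 2.18 and 1.87 CPM in the controls and 666, 589 and 721 CPM under oxLDL. In both genes the treated libraries lay far above the controls. Cxcl1 rose by 6.45, and Ccl5, Cxcl10 and Ccl3, which attract T cells and monocytes, by 6.94, 5.76 and 4.51. Cxcl14 and Cx3cl1 fell, by 1.38 and 0.99. The promoters of Cxcl3 and Cxcl2 are shown because both hold kappaB motifs just before the start of the gene; capitals mark every match on either strand to GGG and TTCC with 3 bases between them (RefSeq, GRCm38.p6, 5′ to 3′ along the gene).
Cxcl3 (chr5:90786011-90786100, plus strand): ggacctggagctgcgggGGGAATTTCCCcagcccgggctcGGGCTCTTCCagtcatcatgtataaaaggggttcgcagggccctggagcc
Cxcl2 (chr5:90903781-90903870, plus strand): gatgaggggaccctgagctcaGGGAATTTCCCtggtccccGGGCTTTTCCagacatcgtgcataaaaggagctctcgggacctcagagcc
These genes are neighbours on chromosome 5 and related in sequence, so their motifs are not independent of each other.

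Interferon-stimulated genes rose without exception: 54 of 54 tested members passed the test, with a median log2 fold change of 2.91. These genes encode antiviral proteins and are switched on by interferon signalling. Isg15 (ENSMUSG00000035692, chromosome 4, 156199424 to 156200818), a ubiquitin-like modifier, measured 7.76, 5.15 and 7.46 CPM in the controls and 310.4, 371 and 707 CPM under oxLDL, a log2 change of 6.09 ± 0.35 (SE, adjusted p = 7.30e-07). Ifit1 (ENSMUSG00000034459, chromosome 19, 34640871 to 34650009), which binds foreign RNA, measured 9.63, 5.40 and 8.30 CPM in the controls and 361, 436 and 572 CPM under oxLDL. In both genes all treated libraries were far above the controls, oxLDL replicate 3 was the highest and control replicate 2 the lowest. Control replicate 2 was the lowest control in 51 of the 54 genes and oxLDL replicate 3 the highest treated library in 43. The summed level was 2818, 1834 and 2497 CPM in the controls and 13644, 17773 and 21402 CPM under oxLDL. This order was not particular to these genes. Control replicate 2 was lowest in 30 of 31 lysosome and autophagy genes and 24 of 27 cholesterol synthesis genes, but in 0 of 28 cell cycle genes. Highest among treated libraries was oxLDL replicate 3 in 25 of 31 lysosome and autophagy genes, but in 6 of 28 cell cycle genes. The shares over all tested genes were not counted. The GTPases Gbp2b and Mx1 rose by 5.42 and 4.96, and the smallest rise of the list, in Irf9, was 0.92 ± 0.10 (SE, adjusted p = 5.36e-05). Ifnb1, the interferon-beta gene, had too few reads to be tested. Ifng, the interferon-gamma gene, rose from a very low level, with 0.230, 0 and 0.224 CPM in the controls and 1.35, 4.06 and 5.17 CPM under oxLDL, a log2 change of 4.50 ± 0.69 (SE, adjusted p = 5.74e-04). Its level was low in every library, and no treated library overlapped the controls.

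The promoters of Isg15 and Ifit1 are shown because they hold the interferon-stimulated response element close to the start of the gene; capitals mark every match on either strand to GAAA and GAAA with 2 bases between them, overlapping matches joined (RefSeq, GRCm38.p6, 5′ to 3′ along the gene).
Isg15 (chr4:156200835-156200924, minus strand): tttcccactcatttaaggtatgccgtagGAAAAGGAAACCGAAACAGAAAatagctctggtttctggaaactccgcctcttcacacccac
Ifit1 (chr19:34640764-34640853, plus strand): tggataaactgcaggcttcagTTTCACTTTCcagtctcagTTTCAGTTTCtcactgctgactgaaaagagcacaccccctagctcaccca
In Ifit1 the matches lie on the opposite strand, so the reverse complement of the motif is read here.

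Antigen presentation genes rose in part. Of 24, 16 rose and 0 fell, with a median of 1.38, and 1 fell without oxLDL replicate 3. Cd40, a costimulatory receptor, measured 4.90, 4.48 and 4.56 CPM in the controls and 128, 171 and 293 CPM under oxLDL, all treated libraries far above the controls. The peptide transporter genes Tap1 and Tap2 rose by 2.38 and 1.91, the immunoproteasome subunit Psmb8 by 1.76, and the checkpoint ligand Cd274 (PD-L1) by 2.50. Of the class II genes H2-Ab1 rose by 1.04, and Cd74, the invariant chain, had a log2 change of 0.45 that did not pass (adjusted p = 0.227). Control replicate 2 was also the lowest control in 23 of these 24 genes, as it was in most lysosome and cholesterol synthesis genes.

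Transcription factor genes moved in both directions. Of 38, 16 rose and 12 fell, with a median of 0.22. The interferon regulatory factor genes Irf7 and Irf1 rose by 3.67 and 2.21, Batf2 by 3.22 and Cebpb, a factor of inflammatory genes, by 1.80. Maf, which helps to maintain the differentiated state of macrophages, fell by 1.32 on the log2 scale. Cebpa, Gata6 and Klf4 fell by 1.36, 1.03 and 0.93. The early genes Fos and Jun, which respond within minutes to stimuli, were lower at 8 h by 0.89 and 0.71. Other genes of the Fos and Jun families rose: Fosl1 by 1.78, Junb by 1.71, Fosl2 by 1.35 and Jund by 0.45.

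Targets of NRF2 rose without CD36. Of 28 tested, 22 rose and 1 fell, with a median of 1.01. Slc7a11, the cystine importer for glutathione synthesis, measured 25.5, 20.1 and 24.4 CPM in the controls and 700.1, 704 and 539 CPM under oxLDL, a 27.8-fold difference and a log2 change of 4.79 ± 0.16 (SE, adjusted p = 3.13e-08). Hmox1, which degrades heme, went from 389.6 ± 24.8 to 1659.5 ± 86.5 CPM. Prdx1 (ENSMUSG00000028691, chromosome 4, 116685544 to 116700822), a peroxiredoxin that removes hydrogen peroxide, measured 1364, 1339 and 1560.4 CPM in the controls and 5315, 5397 and 7596 CPM under oxLDL, and oxLDL replicate 3 was the highest. Gclm (ENSMUSG00000028124, chromosome 3, 122245557 to 122270732), the modifier subunit of the first enzyme of glutathione synthesis, went from 55 ± 4.33 to 223 ± 5.86 CPM. Txnrd1, Srxn1, Gsr and Nqo1 rose by 2.02, 1.54, 1.48 and 1.45, and Nfe2l2, which encodes NRF2, by 0.63. Ephx1, an epoxide hydrolase, fell by 0.69. Promoters of 2 of them are shown, with the match to the antioxidant response element TGACNNNGC in capitals, here on the opposite strand (RefSeq, GRCm38.p6, 5′ to 3′ along the gene).
Prdx1 (chr4:116685426-116685514, plus strand): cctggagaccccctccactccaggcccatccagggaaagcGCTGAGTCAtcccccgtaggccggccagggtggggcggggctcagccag
Gclm (chr3:122245383-122245471, plus strand): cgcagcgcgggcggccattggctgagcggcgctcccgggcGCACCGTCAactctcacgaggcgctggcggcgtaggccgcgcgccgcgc

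Genes of metal and iron handling rose in 10 of 20 cases and fell in 3 (median 0.63). Fth1, the ferritin heavy chain, went from 8619 ± 544 to 26957 ± 7716 CPM, with 8700.0, 8039 and 9118 CPM in the controls and 21967, 23060.0 and 35845 CPM under oxLDL. Replicate 3 stood apart upward in the treated group, and all treated libraries exceeded the controls. Lcn2, which sequesters bacterial iron carriers, rose by 6.90, and Slc39a14, a zinc and iron importer, by 2.08. Slc40a1, the iron exporter ferroportin, measured 15.3, 12.3 and 15.2 CPM in the controls and 4.06, 3.83 and 3.51 CPM under oxLDL and Steap3, a ferric reductase, fell by 2.10.

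Cholesterol synthesis genes fell more often than they rose. SREBP2 drives this pathway when the cell is short of cholesterol. Of 27 members, 14 fell and 1 rose (median -0.46). Dhcr7, the last enzyme of the pathway, measured 74.4, 70.9 and 75.2 CPM in the controls and 18.6, 22.7 and 19 CPM under oxLDL, a log2 change of -1.87 ± 0.11 (SE, adjusted p = 6.80e-07). Idi1, Lss, Sqle and Hmgcs1 fell by 0.92, 0.81, 0.68 and 0.74. The member that rose was Scap, the escort protein of SREBP, by 0.31.

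LXR targets and cholesterol efflux genes did not move together: 4 of 21 rose and 10 fell (median -0.35). Without control replicate 1 or control replicate 3, 5 fell, and without oxLDL replicate 1, 6 fell. Abca1 and Abcg1 encode the exporters of cholesterol to apolipoprotein A1 and to HDL, and they moved in opposite directions. Abca1 measured 248, 236 and 243 CPM in the controls and 662, 820.3 and 520.3 CPM under oxLDL, and Abcg1 241, 184 and 226 CPM in the controls and 129, 161 and 143 CPM under oxLDL. Neither pair of groups overlapped, and Abca1 changed by 1.46 ± 0.16 (SE, adjusted p = 4.89e-05) and Abcg1 by -0.59 ± 0.13 (SE, adjusted p = 0.00477) on the log2 scale. Ch25h, which makes 25-hydroxycholesterol, rose by 3.87, and Nr1h3, the gene of LXR-alpha, by 0.96. Cyp27a1, which makes 27-hydroxycholesterol, fell from 15.1 ± 3.13 to 2.03 ± 0.149 CPM. Npc1, which exports cholesterol from lysosomes, fell by 0.48.

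Lipid storage genes moved in both directions, and Pparg, which encodes the nuclear receptor PPAR-gamma, was lower. Of 26 members, 10 rose and 11 fell (median -0.22). Acsl1, which activates fatty acids, measured 56.4, 53.7 and 56 CPM in the controls and 742, 838 and 818 CPM under oxLDL, and the fatty acid binding protein gene Fabp3 rose by 4.76. Pparg (ENSMUSG00000000440, chromosome 6, 115360951 to 115490399) measured 42.5, 38.3 and 43.9 CPM in the controls and 7.91, 7.77 and 7.08 CPM under oxLDL, with no overlap and a log2 change of -2.45 ± 0.11 (SE, adjusted p = 1.41e-07). Its textbook target Fabp4 fell by 1.93. Plin2, the main lipid droplet coat gene of macrophages, measured 1133, 1078 and 1207 CPM in the controls and 637, 683 and 837 CPM under oxLDL, lower in all treated libraries by 0.66 on the log2 scale. Soat1, which esterifies cholesterol for storage, Lipa, the lysosomal acid lipase, and Lpin1 fell by 0.92, 0.89 and 2.78. Of 18 genes of mitochondrial fatty acid oxidation, 0 rose and 8 fell (median -0.18), among them Hadhb by 0.81 and Acaa2 by 0.85. That count was 4 without control replicate 3 and 5 without control replicate 1, oxLDL replicate 1 or oxLDL replicate 2.

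In central metabolism, 14 of 22 glycolysis genes rose and 4 fell (median 0.42), and 9 rose when the spread was estimated over all 12 libraries. The glucose transporter gene Slc2a1 went from 87.4 ± 2.45 to 199.6 ± 17.4 CPM, hexokinase Hk2 from 106 ± 5.86 to 240.2 ± 24.2 CPM and the lactate exporter Slc16a3 from 50.2 ± 3.28 to 145 ± 17.6 CPM. In the tricarboxylic acid cycle, 5 of 25 members rose and 5 fell, close to the shares of all genes, and 3 fell without control replicate 1 or 3 or without oxLDL replicate 1 or 2. The exception in size was Acod1 (ENSMUSG00000022126, chromosome 14, 103046977 to 103056573), which diverts aconitate to the antimicrobial metabolite itaconate and measured 52.2, 21.5 and 40.7 CPM in the controls and 3888, 4652 and 5077 CPM under oxLDL. Idh1, the cytosolic isocitrate dehydrogenase, fell by 1.25. Of 13 mitochondrially encoded mRNAs, 0 passed the test, and 4 were lower in the fit with the gene length trend removed.

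Genes of arginine import and use changed in both directions. Nos2, the inducible nitric oxide synthase, measured 0.740, 0.200 and 1.02 CPM in the controls and 56.5, 134 and 208 CPM under oxLDL. The treated libraries varied widely but all exceeded the controls, and the log2 fold change was 7.66 ± 0.59 (SE, adjusted p = 5.64e-06). Arg2 rose by 4.80, the arginine importer Slc7a2 went from 74.2 ± 4.69 to 1614 ± 169.6 CPM, and Ass1, which regenerates arginine, rose by 3.06. Arg1, the arginase of alternatively activated macrophages, was lower, at 102, 112 and 114 CPM in the controls and 58.5, 74 and 81.4 CPM under oxLDL. Of the 15 genes of the list 8 rose and 4 fell (median 0.49).

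Eicosanoid genes changed in both directions. Of 22, 8 rose and 13 fell (median -0.46). The inducible cyclooxygenase gene Ptgs2 measured 2.96, 2.13 and 2.29 CPM in the controls and 323, 427 and 422 CPM under oxLDL, and Ptges, the inducible prostaglandin E synthase, 13.6, 13.3 and 14.4 CPM in the controls and 754, 828 and 939 CPM under oxLDL. The constitutive cyclooxygenase gene Ptgs1 measured 48.4, 50.4 and 44.1 CPM in the controls and 12.8, 12.2 and 11 CPM under oxLDL. Hpgds, the prostaglandin D synthase of hematopoietic cells, fell by 2.25, and on the leukotriene branch Alox5 fell by 3.46, Ltc4s by 1.97 and Lta4h by 0.70. Receptors for nucleotides, chemokines and lipid mediators rose in 12 of 30 cases and fell in 11 (median 0.09). Fpr2 and Fpr1, receptors for formyl peptides, rose by 6.43 and 5.17, Gpr84, a receptor of medium-chain fatty acids, by 5.71, and the adenosine receptor Adora2a by 4.36. The fractalkine receptor gene Cx3cr1 measured 28.4, 43.4 and 35.9 CPM in the controls and 3.37, 3.88 and 3.43 CPM under oxLDL, and Gpr183, Cxcr4 and Ccr2, all receptors of migration, fell by 3.09, 2.36 and 1.74.

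Genes for the uptake of dying cells and the complement system were mostly lower: 16 of 28 fell and 4 rose (median -0.73). Gas6, which bridges dying cells to TAM receptors, measured 60.3, 70.0 and 60.2 CPM in the controls and 17.3, 15.6 and 16.2 CPM under oxLDL, and Itgb5, an integrin chain of the same uptake, fell by 1.99. Trem2 and the complement genes C1qa and C1qc fell by 1.27, 0.70 and 0.79. The alternative-pathway gene Cfb went the other way and rose by 4.94, and C3 rose by 1.56. Among 25 genes of resident peritoneal macrophages, 9 rose and 8 fell (median -0.14). Saa3, an acute-phase protein gene, rose by 4.17 and F10, coagulation factor X, by 3.54, while Cd93 measured 401, 356 and 389.8 CPM in the controls and 84.5, 85.3 and 64.8 CPM under oxLDL. In coagulation and matrix genes, 14 of 28 rose and 8 fell (median 0.44). Serpinb2, the plasminogen activator inhibitor 2, measured 6.66, 6.31 and 6.61 CPM in the controls and 221, 254 and 225 CPM under oxLDL, tissue factor F3 rose by 2.62, Mmp13 by 2.87, and F13a1 fell by 1.66.

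Inflammasome and cell death genes rose in 14 of 28 cases and fell in 7 (median 0.34). The sensor Nlrp3 measured 20.1, 19.1 and 19.2 CPM in the controls and 273, 262 and 250.1 CPM under oxLDL, and Casp4 and Casp1, the inflammatory caspases, rose by 2.74 and 1.27. The survival genes Bcl2a1a, Cflar and Birc3 rose by 3.54, 2.55 and 2.26, Bcl2a1a as a member of a family of near-identical copies whose reads may be split, and the death genes Bcl2l11 and Gsdme fell by 1.32 and 1.53. Stress and growth programs moved less. Of 24 genes of the unfolded protein and integrated stress response 8 rose and 3 fell (median 0.13), or 5 rose without control replicate 3, led by Nupr1 and Ppp1r15a at 2.01 and 1.62. Among genes of the lysosome and of autophagy, 31 in all, 6 rose and 7 fell (median -0.13), close to the shares of all genes. Without control replicate 3, 4 fell, and without oxLDL replicate 3, 13 fell. Of these genes, the autophagy receptor Sqstm1 went from 333 ± 12.4 to 1130.5 ± 133 CPM and the lysosomal regulator Tfeb was lower by 1.04. Of 28 cell cycle genes 2 rose and 8 fell (median -0.23), or 4 fell without control replicate 2 or 3 and 5 without oxLDL replicate 2, among them Pcna and Mcm2 by 0.58 and 0.66, while Mki67 rose by 0.62.

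**Figure D3:**
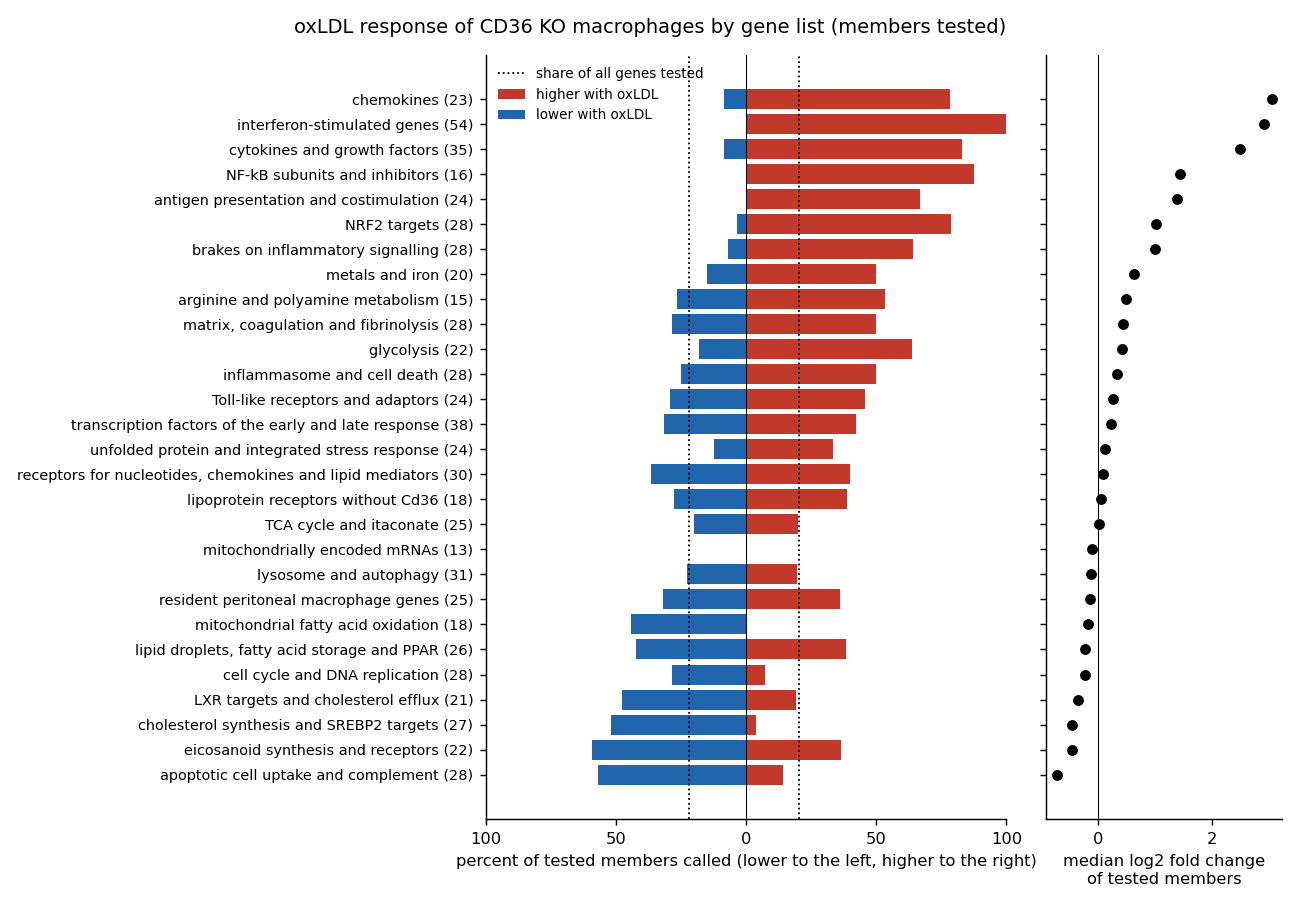
Share of the tested members of 28 gene lists that rose (red, to the right) or fell (blue, to the left) with oxLDL in CD36 KO macrophages, in percent, and the median log2 fold change of each list (right panel); the number of tested members is in brackets and dotted lines mark the shares over all genes, 20.2% and 21.8%. The medians run from -0.73 for apoptotic cell uptake and complement to 3.04 for chemokines.

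Promoter windows, from 250 bases before to 50 after the gene start, were available for 10425 of 12835 tested protein-coding genes outside chromosome 18 (81.2%). Genes that rose at least 8-fold held the kappaB motif in 13.3% of 180 windows and the interferon-stimulated response element in 15.6%, against 6.3% and 3.27% of the windows of all tested genes. In genes not called, the shares were 5.94% and 2.34%, and in the 54 windows of genes that fell at least 8-fold 1.85% and 0%. The antioxidant response element was found in 13.3% of the windows of genes that rose at least 8-fold and in 14.9% of all tested. Of 23 windows of NRF2 targets, 26.1% held it. Over all 27025 windows of the table, the kappaB, interferon and antioxidant motifs occurred in 5.52%, 3.49% and 12.5%. Promoters at both ends of the response were poor in CpG dinucleotides, with a median of 5 per window in genes that rose at least 8-fold and 7.5 in genes that fell at least 8-fold, against 21 in genes not called. For genes that rose or fell between 2-fold and 8-fold fewer than 80% had a window, and the comparison is void for them. A motif match is a description of the letters, and the genes of a cluster share related promoters.

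**Figure D4:**
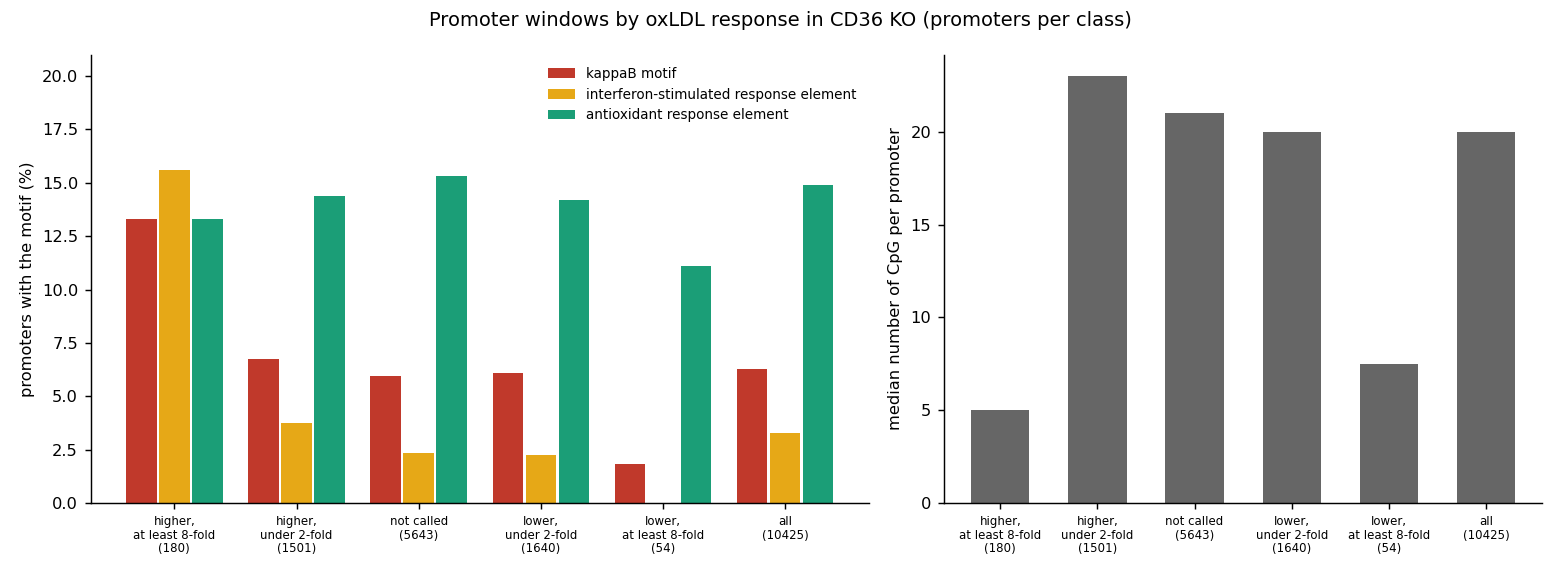
Left, percent of promoter windows that hold a match to the kappaB motif, the interferon-stimulated response element or the antioxidant response element, by class of response in CD36 KO macrophages; right, median number of CpG dinucleotides per window; the number of windows is in brackets. The interferon element falls from 15.6% in genes that rose at least 8-fold to 0% in genes that fell at least 8-fold, and the median CpG number is 5 and 7.5 in these classes and 20 over all.

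How far the response depended on CD36 was asked by fitting all 12 libraries in 1 model. Fold changes of both genotypes in this comparison come from that model unless stated. Genes called in CD36 KO, and the limit of 2 on their absolute log2 fold change used below, are those of the 6-library fit. WT oxLDL replicate 1 stood apart from its group (r = 0.952, against 0.988 or more within both CD36 KO groups), so values are also given without it. Of the 6624 genes called in CD36 KO, 4562 were called in the same direction in WT, 14 in the opposite direction, and 1799 had the same sign without a call. Over all 16281 genes of the 12-library model, 18.3% were called higher and 18.9% lower in WT. That model called fewer genes in CD36 KO than the 6-library fit, 4515 against 6624. Of the 788 with an absolute log2 fold change of at least 2, 748 were called the same way in WT, 157 were shared within 2-fold as defined next, and 30 passed the test of the difference. A response was counted as shared within 2-fold where both genotypes passed in the same direction and the 95% interval of the difference lay within 1 log2 unit of 0. That held for 2291 genes, 34.6% of those called in CD36 KO, of which 1112 rose and 1179 fell, and for 4076 genes without WT oxLDL replicate 1. The median interval reached 0.74 log2 units to either side, so many genes could not be placed.

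Shared genes included cytokines, antioxidant, lipid and receptor genes. Tnf rose by 6.54 in CD36 KO and 6.56 in WT, with a difference of -0.02 ± 0.27 (SE, adjusted p = 0.993). Slc7a11, Hmox1, Prdx1 and Gclm, of the NRF2 targets, all lay within 2-fold, with differences of -0.03, -0.58, 0.32 and 0.28 (CD36 KO minus WT). So did Tlr2 (0.29), Il1a (0.48), Nlrp3 (0.13), Acsl1 (-0.24) and, among genes that fell, Dhcr7 (0.42), Pparg (0.59), Hpgds (0.30) and Gas6 (0.14). NRF2 targets were shared in 14 of 28 cases, cytokines in 5 of 35 and interferon-stimulated genes in 9 of 54. Of all genes tested in both fits 14.5% were shared, and of the genes called in CD36 KO 34.6%. Only called genes could count as shared, and all 54 interferon-stimulated genes were called, so for them the second share is the closer comparison. The median rise of the interferon-stimulated genes was 2.91 in the 6-library fit of CD36 KO and 3.92 in WT in the 12-library model. The difference passed the test in 1 of the 54, or in 23 without WT oxLDL replicate 1. Over all genes it passed in 113 of 16281 (0.694%). Without that library it passed in 256 positive and 898 negative genes, whose share was not computed.

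The difference between the genotypes' responses passed an adjusted p under 0.05 in 113 of 16281 genes (0.694%), 39 positive and 74 negative, and all 113 passed with the same sign without WT oxLDL replicate 1, when 256 positive and 898 negative genes passed. Leaving out any other single library gave 16 to 34 positive and 25 to 90 negative genes. Of the 113, 75 were called in the same direction in both genotypes, 6 in opposite directions, 10 in CD36 KO alone and 22 in WT alone. Of the 91 called in CD36 KO, the difference ran against the CD36 KO response in 67 and along it in 24. Edn1, the precursor of endothelin-1, went from 3.13 to 8.85 CPM in CD36 KO and from 0.466 to 12.3 CPM in WT, a difference of -3.21 ± 0.41 (SE, adjusted p = 0.00405) on the log2 scale. Ccl12, a monocyte chemokine, went from 0.887 to 2.61 CPM in CD36 KO and 0.160 to 12.1 CPM in WT, and Cav1, the caveolin-1 gene, from 39.4 to 92.3 CPM and 15.3 to 242 CPM. These 3 rose in both genotypes, and by a smaller fold without CD36. Their control levels were higher in CD36 KO than in WT, so part of the difference lies in the controls. Among the CD36 KO controls, Edn1 measured 2.42, 4.03 and 2.93 CPM and Cav1 28.2, 53.9 and 36.3 CPM. Both were highest in replicate 2, which also had the highest sum of mesothelial and fibroblast markers. The part of other cells was not tested. Socs3 and Ptges, strongly raised without CD36, also rose by a smaller fold than in WT, with differences of -2.04 and -1.52. Socs3 went from 15.1 to 352 CPM in CD36 KO and from 7.68 to 740 CPM in WT. Ptges went from 12.9 to 756 CPM in CD36 KO and from 6.90 to 1159 CPM in WT. For both genes part of the difference lies in the higher CD36 KO controls and part in the lower treated level. Tissue factor F3 rose by 2.56 in CD36 KO and had a log2 change of -0.19 in WT. Arg1 had log2 fold changes of -0.68 in CD36 KO and 1.29 in WT, a difference of -1.97 ± 0.24 (SE, adjusted p = 0.00359). Nlrp1b, an inflammasome sensor gene, had log2 fold changes of -0.58 in CD36 KO and -4.13 in WT. Cxcl2 rose by more in CD36 KO, with a difference of 1.05 ± 0.19 (SE, adjusted p = 0.0265), which passed without WT oxLDL replicate 1, CD36 KO control replicate 2 or CD36 KO oxLDL replicate 3 but not without any of the other 9 libraries.

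**Figure D5:**
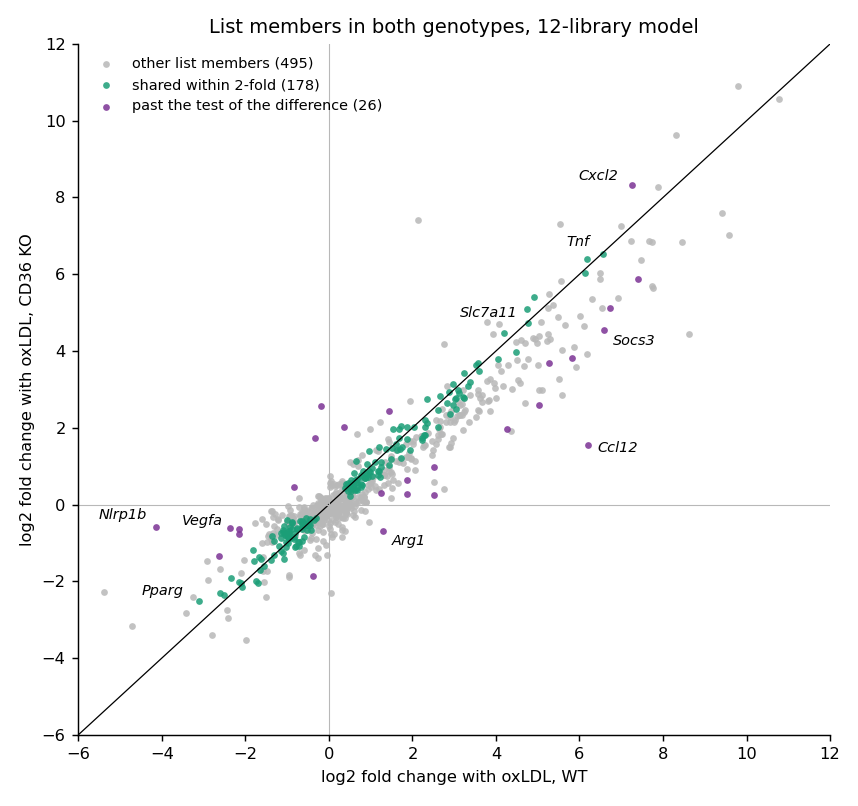
Log2 fold change with oxLDL in CD36 KO (vertical) against WT (horizontal) for 699 members of the gene lists, in the 12-library model; green members were shared within 2-fold (178), purple members passed the test of the difference (26), and the line marks equal responses. Of the list members, 410 of the 488 members called in CD36 KO were called in the same direction in WT. Over all genes of the model, 18.3% were called higher and 18.9% lower in WT.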

How the data were processed

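RNA-seq counts per gene of 12 mouse macrophage libraries were used as the authors deposited them, as raw read counts with RPKM values beside them that were not used here. The build mm10 and the tool FastQC are named per the submitters' processing notes, with the aligner, counting program and use of strand not given in the sources used here. The authors' deposited comparison table gives log2 fold changes and p-values with false discovery rates, used only where it is named. No per-sample column was left without a sample (0).

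Levels were computed as CPM with TMM factors. Genes were kept by filterByExpr (minimum count 10, minimum total 15) and tested with edgeR 4.0.16 (R 4.3.3), the quasi-likelihood test on the counts with Benjamini-Hochberg adjustment over all genes tested, called at an adjusted p under 0.05. All adjusted p-values printed come from it, log2 fold changes are oxLDL against control, and standard errors were derived from the F statistic. The 6 CD36 KO libraries were fitted alone, and all 12 libraries in 1 model for WT and for the difference between genotypes (CD36 KO minus WT). The fits were tested on simulated counts with 200 changed genes and the same spread for every gene. Symbols came from GENCODE M21, which held 98.0% of the identifiers, and gene spans from the same annotation, because the positions in the count table span 1 exon. Alternatives were DESeq2 1.42.0, upper-quartile and median-ratio factors, no filter, the replicate number as a block, other sets of libraries, removal of the gene length trend and each library left out.

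The comparison and the gene lists were chosen with earlier results of these data known. Genes were named by rule: from each list up to 6 rises and 6 falls with the largest change and no overlap between groups, up to 2 uncalled members with the highest level and up to 3 shared members; over all genes the 15 largest log2 rises and falls and the 10 largest in CPM; and the 15 largest differences between genotypes. Outside this rule and chosen after their values were seen are C1qa, C1qc, Casp1, Ccl3, Ccr2, Fosl1, Fosl2, Gsr, H2-Ab1, Ifng, Il10, Irf9, Jun, Junb, Jund, Lta4h, Mir155hg, Mx1, Nfe2l2, Nqo1, Plin2, Psmb8, Ptx3, Rel, Rela, Sqle, Srxn1, Tnfsf15, Trem2 and Zc3h12a. Reads of overlapping or antisense genes and of near-identical copies may be assigned to either gene. Some genes are not reported here.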

Additional observations from a re-analysis of the deposited data

Results flagged for a closer look

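Of the genes named in the report, 13 had a response to oxLDL that differed between CD36 KO and WT by the test of the difference, given here as CD36 KO minus WT on the log2 scale. The difference was negative for Ccl12 (-4.66), Edn1 (-3.21), Cav1 (-2.76), Timd4 (-2.44), Socs3 (-2.04), Ch25h (-2.02), Arg1 (-1.97), Fpr1 (-1.63) and Ptges (-1.52). It was positive for Nlrp1b (3.55), F3 (2.74), Vegfa (1.39) and Cxcl2 (1.05). Timd4, the phosphatidylserine receptor of resident macrophages, went from 1.34 to 8.07 CPM in CD36 KO and from 0.169 to 5.61 CPM in WT, so its levels were low in both genotypes. Ch25h went from 1.32 to 18.6 CPM in CD36 KO and from 0.342 to 19.7 CPM in WT. Control levels of Timd4 and Ch25h were higher in CD36 KO than in WT. Their negative differences therefore lie largely in the controls, and the treated level of Timd4 was not lower in CD36 KO. Vegfa went from 79 to 46.6 CPM in CD36 KO and from 86.6 to 19.5 CPM in WT, and Fpr1 from 3.75 to 129 CPM and 2.40 to 257 CPM. All 13 had the same sign without WT oxLDL replicate 1. The calls for Ch25h and Cxcl2 were lost when most other single libraries were left out.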

How the results depend on the processing

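In CD36 KO, 3186 genes rose and 3438 fell. Both counts stayed within 1.5 times of these under DESeq2 (3417 and 3317), upper-quartile factors (2491 and 4481), median-ratio factors, no filter, removal of the length trend and the replicate block, and 0 genes were called in the opposite direction by any of them. With all 12 libraries in 1 model 1920 rose and 2595 fell, and with WT oxLDL replicate 1 left out of that model 3492 and 4825. At least 2-fold changes were 1195 and 1283. Leaving out single CD36 KO libraries gave 2450 to 3480 higher and 2592 to 3699 lower genes. The difference between genotypes, 39 positive and 74 negative, moved to 194 and 341 with DESeq2, and leaving out single libraries gave 16 to 256 positive and 25 to 898 negative genes, both highest without WT oxLDL replicate 1. Shared responses, 2291, ranged from 1565 to 4076, again highest without that library. The cause was not tested. Whether replicate numbers pair the samples could not be told from 3 libraries per group, and the labels do not say. Deviations of control and treated libraries of the same number correlated at 0.081, 0.036 and 0.234. The best-matching treated library had the same number for control replicates 1 and 3, but not for 2. The replicate block gave 3393 and 3733 genes in CD36 KO and 18 and 27 for the difference between genotypes. Of 196 genes checked by name for their CD36 KO response, 12 lost their call in at least 1 alternative, in 23 results together. In 2 results a call was gained. Across the gene lists and alternatives, 79 counts moved by more than 1.5 times, or to or from 0. Lyz2, not called, changed sign to -0.058 with the length trend removed and to -0.016 without oxLDL replicate 3. On simulated counts with the same spread for every gene and no outlying library, the test found 88.4% of 2-fold changes in CD36 KO and all 4-fold changes. For the difference between genotypes it found 52.4% of 2-fold changes in that setting. The spread of the real libraries was not simulated, so these shares need not hold for the data, and small differences between genotypes may be missed. Genes with few reads are limited by counting error.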

Other observations

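Changed genes lay beside each other on the chromosomes in places. Taking tested genes in their mm10 order, 36 runs of at least 5 neighbours rose together and 27 fell together. Of all tested genes 20.2% rose and 21.8% fell, and the number of runs that these shares alone would give was not computed. A run of 13 genes on chromosome 7, from Trim34a to Trim30e-ps1, rose with a median log2 fold change of 1.41, and it holds Trim family genes, several of which are near-identical. A run of 9 on chromosome 5, from Dtx1 to Ptpn11, contains the Oas genes that activate RNase L and rose with a median of 1.92. The run from Afp to Ereg, also on chromosome 5, holds 8 genes with Cxcl5, Pf4, Cxcl3, Cxcl1 and Cxcl2 and had a median of 3.08. On chromosome 11, 8 genes from Fam20a to Kcnj2, with a row of Abca transporter genes, fell with a median of -1.73. Overlapping or similar genes can share reads, and the part of this was not tested.

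Gene classes differed in their share of calls. Of 13211 protein-coding genes 21.8% rose and 23.6% fell, of 277 lincRNA genes 10.5% and 37.9%, of 171 antisense genes 11.7% and 28.7%, and of 1073 processed pseudogenes 14% and 1.96%. Response also moved with gene length: of genes up to 1000 bases 13.5% rose and 6.69% fell (median log2 fold change 0.181), and of genes over 8000 bases 16% rose and 29% fell (median -0.167). The part of length in the gene results was not tested apart from the fit with the length trend removed.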
